A study of Mus musculus with 18 samples.

Results

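Chemokines are small secreted proteins that guide leukocytes and glia, and chemokine receptors are the G protein-coupled receptors that read them. The chemokine system was described here in the dorsal spinal cord of mice with or without a peripheral inflammation. Members were all genes whose symbol starts with Ccl, Ccr, Cxcl, Cxcr, Cx3cl, Cx3cr, Xcl, Xcr or Ackr followed by a number, and that had a locus of their own in each of the 3 deposited tables. By that rule, 43 of 18182 singly named genes were members. They comprise 17 CC ligands, 10 ligands of the CXC, CX3C and XC classes, 13 signalling receptors, 2 atypical receptors and the pseudogene Ccl19-ps1. Of these, 41 reached 0.5 FPKM (fragments per kilobase, a read density corrected for gene length and library size) in at least 1 group. The receptors Ccr9 and Xcr1 stayed under it in all 6 groups. Another 20 names of the same families, Cxcl10, Ccl21a and Ackr1 among them, were not analysed here.

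RNA came from the dorsal part of the lumbar spinal cord, segments L3 to L5, of C57BL/6 mice (C57BL/6N in the study's methods) aged 3 months. Every mouse had received a recombinant adeno-associated virus (rAAV) into the dorsal horn of both sides. The virus carried LacZ as a control protein, HDAC4 wt (wild-type histone deacetylase 4) or HDAC4 3SA, a mutant form of HDAC4 that stays in the nucleus. Intraplantar saline or complete Freund's adjuvant (CFA), which inflames the paw, was given 24 h before collection, so that the 6 groups of 3 mice were LacZ saline, LacZ CFA, HDAC4 wt saline, HDAC4 wt CFA, HDAC4 3SA saline and HDAC4 3SA CFA. All groups carried a virus, and an uninjected group was not analysed here. The promoter that drives each protein is not given in the sources used here.

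The deposited tables hold 1 FPKM value for each group of 3 mice, as the authors pooled them. No value per mouse or standard deviation could therefore be had, and no test over mice could be computed from these values. The authors' own test columns were not used, so every difference below is a description of group values without a replicate check. A member is counted as higher or lower where the log2 ratio, with 0.1 FPKM added to both values, lay beyond 0.5 and the gene reached 0.5 FPKM in a group of that comparison. Each vector's saline and CFA groups were scaled together in 1 table, whereas levels of different vectors come from 3 tables normalized separately, and LacZ saline stands in both comparisons of an HDAC4 vector with LacZ. Fewer cells of a type and less RNA per cell cannot be told apart in such tissue samples. The labels give neither a batch nor the virus preparation of a mouse, so either of these and the vector cannot be told apart in any comparison between vectors.

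Microglia, the resident macrophages of the spinal cord, carry receptors for many chemokines and release several CC ligands when activated. Neurons supply Cx3cl1, whose receptor Cx3cr1 sits on microglia, and other members draw monocytes, T cells, B cells or neutrophils out of the blood. Transcription of many inflammatory chemokines is driven by NF-kB and by interferon signalling, whereas homeostatic chemokines such as Cxcl12 are made without inflammation.

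The promoters of Cxcl9, Cxcl13, Ccl3 and Cx3cl1 are printed to set members of unlike pattern beside each other. Cxcl9 and Cxcl13 were among the members that differed most between vectors, Ccl3 was a CC ligand far higher with both HDAC4 vectors, and Cx3cl1 was close in all groups. The 250 bases before the start site are from RefSeq on GRCm38.p6, 5′ to 3′ on the gene's strand, and capitals mark matches to GGGANNTTC (a form of the NF-kB site) or GAAANNGAA (the core of the interferon-stimulated response element), searched on both strands.
Cxcl9 (chr5:92328080-92328329, minus strand): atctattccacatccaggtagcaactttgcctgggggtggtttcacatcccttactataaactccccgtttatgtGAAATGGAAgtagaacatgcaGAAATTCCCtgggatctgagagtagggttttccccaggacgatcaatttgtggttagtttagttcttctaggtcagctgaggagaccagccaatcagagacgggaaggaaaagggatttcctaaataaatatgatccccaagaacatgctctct
Cxcl13 (chr5:95956689-95956938, plus strand): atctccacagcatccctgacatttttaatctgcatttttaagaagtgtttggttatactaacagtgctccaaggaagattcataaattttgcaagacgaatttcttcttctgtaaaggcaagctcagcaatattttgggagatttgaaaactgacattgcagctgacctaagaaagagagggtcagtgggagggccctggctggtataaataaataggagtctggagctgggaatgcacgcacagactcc
Ccl3 (chr11:83649379-83649628, minus strand): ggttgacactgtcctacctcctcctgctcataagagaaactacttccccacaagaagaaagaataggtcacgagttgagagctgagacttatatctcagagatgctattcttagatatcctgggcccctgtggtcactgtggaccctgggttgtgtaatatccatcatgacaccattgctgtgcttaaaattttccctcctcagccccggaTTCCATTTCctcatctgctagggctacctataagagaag
Cx3cl1 (chr8:94771930-94772179, plus strand): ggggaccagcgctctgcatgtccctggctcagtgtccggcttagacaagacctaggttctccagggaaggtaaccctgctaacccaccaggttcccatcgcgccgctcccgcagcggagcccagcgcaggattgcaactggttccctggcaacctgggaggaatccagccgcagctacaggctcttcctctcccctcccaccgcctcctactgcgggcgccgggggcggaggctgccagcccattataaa

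Cxcl9 held an interferon element core that began 175 bases, and an NF-kB form that began 154 bases, before its start. Ccl3 held an interferon element core 39 bases before its start, and Cxcl13 and Cx3cl1 held neither set of letters in these bases. In the full windows of 300 bases, which end 50 bases after the start, the NF-kB form occurred in 4.47% of 27025 genes and in 5 of the 31 members that could be matched (Ccl1, Cxcl1, Cxcl2, Cxcl9 and Cxcr2). The interferon element core occurred in 9.76% of those genes and in 6 of the 31 members (Ccl1, Ccl19, Ccl3, Ccr2, Cxcl14 and Cxcl9). Such matches describe letters and not binding.

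Loci in the tables did not always cover the gene they name. Against the GENCODE M21 annotation, under 50% of the exon bases lay within the locus for 8 members: Ccr9 (0%), Cxcr5 (3.66%), Ccr7 (3.79%), Xcr1 (10.1%), Ccl1 (21.1%), Cxcr2 (26.4%), Ccr8 (31.8%) and Cxcl5 (49.7%). The loci of Ackr4 and Ccl19-ps1 also held exons of another gene on the same strand. Values of these members are uncertain, as are those of Ccl19 and Ccl19-ps1, whose sequences are near copies. Exons of other coding genes lay on the opposite strand within the loci of Ccl25, Ccl27a, Cxcl16, Xcl1 and Cxcr5. The libraries were strand-specific, but the sources used here do not state how strand was handled in mapping and counting. Whether reads of those genes entered the values of these members was not tested.

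The levels of members in all 6 groups are given in the plot of saline and CFA levels by vector. In LacZ saline tissue, 23 of the 43 members reached 0.5 FPKM and 6 reached 5 FPKM. The highest was Cxcl14, an epithelial and neural CXC ligand without an agreed receptor, at 29.7 FPKM. It was followed by Cx3cl1 at 18.7 FPKM, Cxcl12 at 16.4 FPKM, Ccl27a at 13.8 FPKM, the Ackr4 locus at 12.98 FPKM and Cx3cr1 at 9.12 FPKM. The control cord thus held mostly constitutive ligands and the fractalkine receptor. In HDAC4 wt saline tissue 14 members reached 5 FPKM and in HDAC4 3SA saline tissue 12 did. In HDAC4 wt CFA tissue Ccl5 was the highest member at 50.7 FPKM, and in HDAC4 3SA CFA tissue Cx3cr1 was, at 42.1 FPKM.

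**Figure D1:**
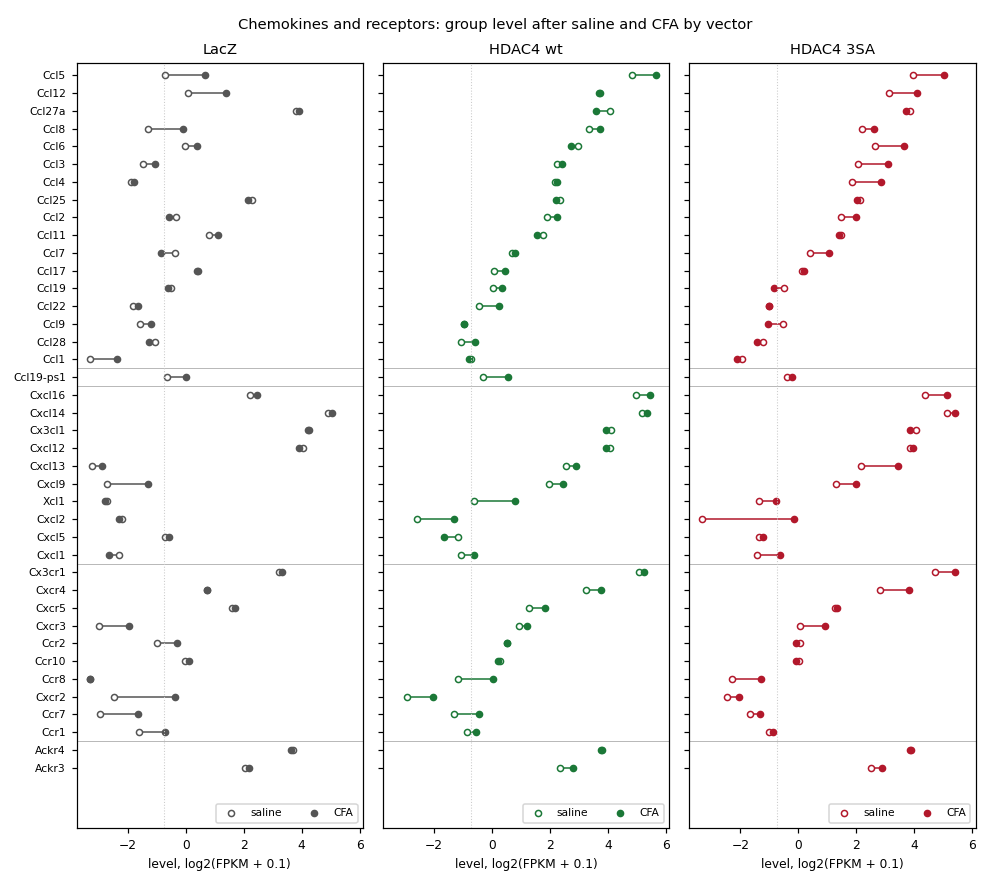
Level of 40 members that reached 0.5 FPKM, as log2(FPKM + 0.1), in LacZ, HDAC4 wt and HDAC4 3SA mice; open circles are saline groups, filled circles CFA groups, each 1 pooled value of 3 mice, and the dotted line is 0.5 FPKM. Ccl5, Ccl3, Ccl4, Ccl8, Cxcl13 and Cxcl9 lie near or left of that line in LacZ saline and well to its right with both HDAC4 vectors, whereas Cxcl14, Cx3cl1, Cxcl12, Ccl27a and Ccl25 stay in place.

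After saline, more than 1 in 2 of the members compared were higher in mice with either HDAC4 vector than in LacZ mice, by many times for Ccl5, Ccl3, Ccl4, Ccl8 and Ccl12. Cxcl5 and Cxcl2 were lower with both HDAC4 vectors, and Cxcr2 was lower with HDAC4 wt and close to LacZ with HDAC4 3SA. Values of Cxcl2 and Cxcr2 were under 0.5 FPKM in all saline groups. Among 33 members that reached 0.5 FPKM in HDAC4 wt saline or LacZ saline, 21 were higher in HDAC4 wt (background over all loci, 17.9%) and 0 were lower (background 14.7%), with a median log2 ratio of 1.43 beside 0.04 over all loci. For HDAC4 3SA against LacZ, 18 of 31 were higher (background 15.1%) and 1, Cxcl5, was lower (background 13.4%), with a median of 1.04 beside 0.03. Since 11 and 9 of these members reached the minimum in the HDAC4 or the LacZ group alone, the counts were also taken over all 43 members with no minimum: 27 were higher and 0 lower in HDAC4 wt (18.3% and 16.9% of all loci above 0), and 25 higher and 2 lower in HDAC4 3SA (16.3% and 16% of them). The ratio exceeded 1 on the log2 scale for 19 members in HDAC4 wt (8.89% of all loci) and 16 in HDAC4 3SA (7.33%).

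Loci of low level spread more between tables, so members were set beside loci of like mean level. Of 29 members whose mean over HDAC4 wt saline and LacZ saline was 0.5 FPKM or more, 13 lay above the 95th percentile of their level band and 0 lay below the 5th. These were Ccl2, Ccl3, Ccl4, Ccl5, Ccl6, Ccl8, Ccl12, Cx3cr1, Cxcl9, Cxcl13, Cxcl16, Cxcr3 and Cxcr4. For HDAC4 3SA against LacZ 12 of 28 lay above it, and the one of the former set that was missing was Cxcr3, whose mean stayed under 0.5 FPKM.

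Among CC ligands, Ccl5 (RANTES, which attracts T cells and monocytes) showed the largest saline ratio of a gene that reached 0.5 FPKM in LacZ saline. Its level was 0.503 FPKM in LacZ saline, 28.2 FPKM in HDAC4 wt saline and 15.3 FPKM in HDAC4 3SA saline, which are ratios of 56.1 and 30.4. After CFA it was 1.49 FPKM with LacZ, 50.7 FPKM with HDAC4 wt and 32.8 FPKM with HDAC4 3SA. Every HDAC4 group exceeded both LacZ groups by far, and CFA groups lay above saline groups in each vector.

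Ccl3 and Ccl4 (macrophage inflammatory proteins), which lie beside each other on chromosome 11, ran together. Ccl3 was at 0.26 FPKM in LacZ saline, 0.377 FPKM in LacZ CFA, 4.63 FPKM in HDAC4 wt saline, 5.17 FPKM in HDAC4 wt CFA, 4.12 FPKM in HDAC4 3SA saline and 8.41 FPKM in HDAC4 3SA CFA. Ccl4 was at 0.169, 0.193, 4.37, 4.65, 3.54 and 7.08 FPKM in the same order. Both saline levels with HDAC4 3SA were close to those with HDAC4 wt, and both were highest after CFA in HDAC4 3SA mice.

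Ligands of Ccr2, the receptor of inflammatory monocytes, were unequal. Ccl12, a mouse Ccr2 ligand, was at 0.957 FPKM in LacZ saline and 2.49 FPKM in LacZ CFA, at 12.8 and 13 FPKM in HDAC4 wt and at 8.65 and 17 FPKM in HDAC4 3SA. Ccl2, the best known Ccr2 ligand, was at 0.682 and 0.566 FPKM in LacZ, 3.6 and 4.6 FPKM in HDAC4 wt and 2.67 and 3.87 FPKM in HDAC4 3SA. Ccl7, another ligand of monocyte receptors, was at 0.674 and 0.453 FPKM, 1.53 and 1.65 FPKM, and 1.21 and 1.97 FPKM. Saline ratios of HDAC4 wt to LacZ were thus 13.3 for Ccl12, 5.28 for Ccl2 and 2.26 for Ccl7. Ccl2 and Ccl7 were lower after CFA than after saline in LacZ mice and higher in HDAC4 3SA mice.

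Ccl8, a monocyte attractant of the same cluster, was at 0.304 FPKM in LacZ saline and 0.832 FPKM in LacZ CFA, at 10.02 and 13.2 FPKM in HDAC4 wt and at 4.45 and 6.02 FPKM in HDAC4 3SA. Ccl6, a CC ligand made by myeloid cells, was at 0.884 and 1.2 FPKM, 7.72 and 6.5 FPKM, and 6.16 and 12.6 FPKM. For Ccl8 HDAC4 wt was the higher vector in both treatments, whereas for Ccl6 HDAC4 3SA was higher after CFA. The eosinophil attractant Ccl11 differed less, with 1.62 and 2.06 FPKM in LacZ, 3.32 and 2.86 FPKM in HDAC4 wt, and 2.71 and 2.58 FPKM in HDAC4 3SA.

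Neighbouring CC ligands on chromosome 11 did not share 1 ratio. In the group of Ccl2, Ccl7, Ccl11, Ccl12 and Ccl8 (GRCm38, chr11:82035584-82116801), the saline ratio of HDAC4 wt to LacZ ran from 2.04 for Ccl11 to 32.9 for Ccl8. In the group of Ccl5, Ccl9, Ccl6, Ccl3 and Ccl4 (chr11:83525777-83664774) it ran from 1.74 for Ccl9 to 56.1 for Ccl5. On chromosome 8, Ccl22, Cx3cl1 and Ccl17 lie next to each other, with ratios of 3.54, 0.909 and 0.775.

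Other CC ligands were low or steady. Ccl27a, a skin-type ligand, lay between 12 and 16.5 FPKM in the 6 groups, and Ccl25, a ligand of Ccr9, between 3.97 and 4.92 FPKM. Ccl17, a ligand of Ccr4, lay between 0.936 and 1.26 FPKM. Ccl19, a ligand of Ccr7, was highest in HDAC4 wt CFA at 1.16 FPKM and lowest in HDAC4 3SA CFA at 0.459 FPKM. Ccl22 was at 0.18 and 0.215 FPKM in LacZ, 0.637 and 1.08 FPKM in HDAC4 wt and 0.392 and 0.398 FPKM in HDAC4 3SA. Ccl9 was highest in HDAC4 3SA saline at 0.589 FPKM, Ccl28 reached 0.565 FPKM in HDAC4 wt CFA alone, and Ccl1, listed at 0 in LacZ saline, reached 0.501 FPKM in HDAC4 wt saline alone.

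Among CXC ligands, Cxcl13 (which attracts B cells through Cxcr5) had the largest log2 ratio of all members. It was near 0 in LacZ, with 0.00565 FPKM in saline and 0.0338 FPKM in CFA mice, and stood at 5.77 and 7.43 FPKM in HDAC4 wt and 4.4 and 10.8 FPKM in HDAC4 3SA. On the log2 scale with 0.1 FPKM added, saline HDAC4 wt exceeded saline LacZ by 5.80 and saline HDAC4 3SA did by 5.41. A plain ratio has no use at so low a LacZ value.

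Cxcl9, an interferon-induced ligand of the T cell receptor Cxcr3, was at 0.0501 FPKM in LacZ saline, 0.305 FPKM in LacZ CFA, 3.79 FPKM in HDAC4 wt saline, 5.37 FPKM in HDAC4 wt CFA, 2.35 FPKM in HDAC4 3SA saline and 3.87 FPKM in HDAC4 3SA CFA. Cxcl16, a transmembrane ligand that also acts as a scavenger receptor, was at 4.51 and 5.34 FPKM in LacZ, 31.2 and 43.2 FPKM in HDAC4 wt and 20.7 and 35.1 FPKM in HDAC4 3SA. Both were lowest in LacZ, and for both the HDAC4 wt groups exceeded the HDAC4 3SA groups of the same treatment.

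Xcl1, a ligand made by T and NK cells, was at 0.0535 and 0.0443 FPKM in LacZ, 0.553 and 1.63 FPKM in HDAC4 wt and 0.288 and 0.49 FPKM in HDAC4 3SA. The neutrophil attractants among the members were low throughout. Cxcl1 did not pass 0.556 FPKM, its value in HDAC4 wt CFA, and Cxcl5 did not pass 0.571 FPKM, its value in LacZ CFA. Cxcl2 was at 0.115 and 0.103 FPKM in LacZ, 0.067 and 0.305 FPKM in HDAC4 wt, listed at 0 in HDAC4 3SA saline, and at 0.809 FPKM in HDAC4 3SA CFA. The CXC ligands Ppbp and Pf4 bear other names and are not members; Ppbp, also a Cxcr2 ligand, was at 0.766 and 2.83 FPKM in LacZ, 2.47 and 1.75 FPKM in HDAC4 wt and 3.5 and 3.17 FPKM in HDAC4 3SA. The 3 members did not share 1 direction in saline tissue, where the log2 difference of HDAC4 wt from LacZ was 1.23 for Cxcl1, -0.36 for Cxcl2 and -0.46 for Cxcl5.

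The constitutive ligands differed little. Cx3cl1 (fractalkine) was at 18.7 and 19.1 FPKM in LacZ, 17 and 15.3 FPKM in HDAC4 wt and 16.8 and 14.4 FPKM in HDAC4 3SA. Cxcl12, the ligand of Cxcr4, was at 16.4, 14.8, 16.9, 15.2, 14.5 and 15.5 FPKM in the same order. Cxcl14 was at 29.7, 33.3, 35.7, 40.8, 35 and 41.9 FPKM. Members with a highest group value under 1.5 times the lowest were Ackr4, Ccl17, Ccl25, Ccl27a, Ccr10, Cx3cl1, Cxcl12 and Cxcl14. Among members that reached 0.5 FPKM and were above 0 in every group, the highest was over 10 times the lowest in Ccl3, Ccl4, Ccl5, Ccl6, Ccl8, Ccl12, Ccr7, Cxcl9, Cxcl13, Cxcr2, Cxcr3 and Xcl1. For Ccr7, Cxcl9, Cxcl13, Cxcr2, Cxcr3 and Xcl1 the lowest value was under 0.1 FPKM, so the size of the ratio has no use. The share of all loci with such narrow or wide ranges was not computed.

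**Figure D2:**
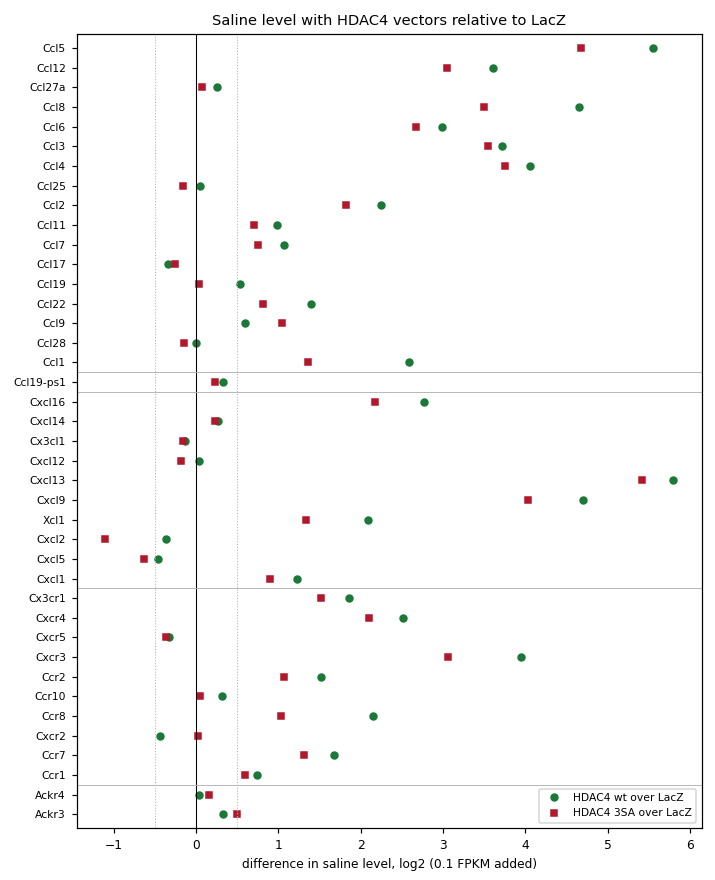
Log2 ratio of the saline level with HDAC4 wt (green circles) and HDAC4 3SA (red squares) to that with LacZ, with 0.1 FPKM added, for 40 members that reached 0.5 FPKM in a group; dotted lines mark 0.5 in either direction. Cxcl13 and Ccl5 stand at the far right, at 5.80 and 5.55 for HDAC4 wt, Cx3cl1, Cxcl12 and Ccl25 lie near 0, and most circles lie to the right of the squares.

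After saline, most receptors that reached 0.5 FPKM were also lowest in LacZ mice. Cx3cr1, the fractalkine receptor of microglia, was at 9.12 and 9.84 FPKM in LacZ, 33.3 and 37.6 FPKM in HDAC4 wt and 26.3 and 42.1 FPKM in HDAC4 3SA. Cxcr4, the Cxcl12 receptor, was at 1.55 and 1.56 FPKM in LacZ, 9.37 and 13.6 FPKM in HDAC4 wt and 6.98 and 13.9 FPKM in HDAC4 3SA. Both receptors were lowest in the LacZ groups and highest in HDAC4 3SA CFA.

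Cxcr3, the receptor of Cxcl9 on activated T cells, was at 0.0242 and 0.159 FPKM in LacZ, 1.81 and 2.21 FPKM in HDAC4 wt and 0.932 and 1.8 FPKM in HDAC4 3SA. Ccr2 was at 0.4 and 0.715 FPKM in LacZ, 1.33 and 1.34 FPKM in HDAC4 wt and 0.948 and 0.839 FPKM in HDAC4 3SA. Ccr1, a receptor of Ccl3 and Ccl5 on myeloid cells, was at 0.225 and 0.509 FPKM, 0.443 and 0.583 FPKM, and 0.39 and 0.452 FPKM. In LacZ mice the CFA value of each of these 3 receptors exceeded the saline value. Ccr7, the Ccl19 receptor, peaked at 0.628 FPKM and Ccr8 at 0.918 FPKM, both in HDAC4 wt CFA, from loci that cover a small part of these genes.

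Cxcr2, the neutrophil receptor of Cxcl1, Cxcl2 and Cxcl5, had a pattern of its own. Its locus was at 0.0779 FPKM in LacZ saline and 0.672 FPKM in LacZ CFA, but at 0.0315 and 0.143 FPKM in HDAC4 wt and 0.0805 and 0.144 FPKM in HDAC4 3SA. LacZ CFA was the one group above 0.5 FPKM. Cxcr5, the Cxcl13 receptor, lay between 2.28 and 3.46 FPKM, from a locus that holds 3.66% of its exon bases, and Ccr10 between 0.837 and 1.12 FPKM. The atypical receptor Ackr3, which takes up Cxcl12, was at 3.98 and 4.41 FPKM in LacZ, 5.04 and 6.82 FPKM in HDAC4 wt and 5.65 and 7.25 FPKM in HDAC4 3SA.

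Ligands and receptors of known pairs differed between vectors to unlike extents. Cx3cl1 had a saline HDAC4 wt to LacZ ratio of 0.909 and its receptor Cx3cr1 one of 3.65. For Cxcl12 the ratio was 1.03, and for its receptors it was 6.04 (Cxcr4) and 1.26 (Ackr3). Cxcl9 and Cxcr3 were both under 0.1 FPKM in LacZ saline, and their log2 differences with 0.1 FPKM added were 4.70 and 3.94.

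Summed over the members of a class, CC ligands stood at 27.2 FPKM in LacZ saline, 101 FPKM in HDAC4 wt saline and 70.7 FPKM in HDAC4 3SA saline. The CXC, CX3C and XC ligands summed to 70.1, 112 and 94.5 FPKM and the signalling receptors to 17.3, 55.7 and 43.3 FPKM. Over the 41 members, 32 were lowest in LacZ among the 3 saline groups (46.7% of all loci of at least 0.5 FPKM in a group), and 29 ran in the order HDAC4 wt over HDAC4 3SA over LacZ (31.6%). HDAC4 3SA against HDAC4 wt after saline gave 0 of 33 members higher (background 6.33%) and 10 lower (background 8.21%), with a median log2 ratio of -0.32 beside -0.01 over all loci. The minimum was reached in 1 of these groups alone by 4 members, among them Ccl1, Ccl22 and Xcl1, counted as lower. With no minimum, over all 43 members, 0 were higher and 13 lower (7.62% and 9.62% of all loci above 0). In their level bands, Ccl5, Ccl8, Ccl12, Cxcl9, Cxcl16 and Cxcr3 lay below the 5th percentile of that comparison.

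After CFA, more members were higher than lower in each vector, and most so in HDAC4 3SA mice. In LacZ mice, 7 of 27 members were higher after CFA (background 6.18%) and 0 lower (background 5.48%), with a median log2 ratio of 0.14. In HDAC4 wt mice 8 of 37 were higher (background 11.9%) and 0 lower (background 8.11%), with a median of 0.32. In HDAC4 3SA mice 16 of 32 were higher (background 12.9%) and 1, Ccl9, was lower (background 6.99%), with a median of 0.47. The median over all loci lay between 0.00 and 0.01 in the 3 tables. The minimum was reached in the saline or the CFA group alone by 5, 6 and 4 of the members counted. With no minimum, over all 43 members, 11 were higher and 1 lower with LacZ (7.97% and 7.37% of all loci above 0), 10 and 1 with HDAC4 wt (13.4% and 9.86%), and 19 and 1 with HDAC4 3SA (13.3% and 8.48%). With 1 FPKM added, 3 of 27 were higher with LacZ (2.55% of all loci) and 3 of 37 with HDAC4 wt (5.64%), and with a minimum of 1 FPKM, 2 of 17 were with LacZ (4.63%).

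Ccl5 was the 1 member higher by over 0.5 on the log2 scale in all 3 vectors. Its CFA to saline ratio was 2.95 with LacZ, 1.8 with HDAC4 wt and 2.14 with HDAC4 3SA. By any amount, 21 of the 41 members were higher after CFA in every vector, beside 20.9% of all loci of at least 0.5 FPKM in a group, and Ccl25 was the 1 member lower in every vector, at log2 ratios of -0.14, -0.12 and -0.10.

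In LacZ mice the members higher after CFA were Ccl5, Ccl8, Ccl12, Ccl19-ps1, Ccr1, Ccr2 and Cxcr2. Among them, Ccl19-ps1 and Cxcr2 come from the loci called uncertain above. The log2 ratio with 0.1 FPKM added was 1.29 for Ccl12, 1.20 for Ccl8, 0.71 for Ccr2, 0.91 for Ccr1 and 2.12 for Cxcr2, all at levels under 3 FPKM. Of the 25 members whose mean was 0.5 FPKM or more, Ccl5, Ccl8, Ccl12 and Ccr2 lay above the 95th percentile of loci of like level. The abundant members Cxcl14, Cx3cl1, Cxcl12, Cx3cr1 and Cxcl16 had CFA to saline ratios from 0.902 for Cxcl12 to 1.18 for Cxcl16.

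In HDAC4 wt mice the 8 higher members were Ccl5, Ccl19-ps1, Ccl22, Ccr7, Ccr8, Cxcr4, Cxcr5 and Xcl1. Among them, Ccl19-ps1, Ccr7, Ccr8 and Cxcr5 come from the loci called uncertain above. Xcl1 had the largest log2 ratio, 1.41, followed by Ccr8 at 1.19. Above the 95th percentile of their band lay Ccl5, Ccr8 and Xcl1, and Ccl27a lay below the 5th, with a log2 ratio of -0.46. For the myeloid ligands that were high after saline no ratio passed the limit, with log2 ratios of 0.03 for Ccl12, 0.09 for Ccl4, 0.15 for Ccl3 and -0.24 for Ccl6, and of 0.39 for Ccl8 and 0.35 for Ccl2.

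In HDAC4 3SA mice some of those ligands stood near 2 times their saline level after CFA, whereas Ccl2 and Ccl7 had smaller ratios of 1.45 and 1.62, and Ccl8, at 1.35, was close to its HDAC4 wt ratio of 1.32. The ratio was 2.04 for Ccl3, 2 for Ccl4, 2.04 for Ccl6, 1.97 for Ccl12 and 2.44 for Cxcl13. For receptors it was 1.99 for Cxcr4, 1.6 for Cx3cr1 and 1.93 for Cxcr3. Of 29 members in a level band, Ccl3, Ccl4, Ccl5, Ccl6, Ccl12, Cx3cr1, Cxcl13, Cxcl16 and Cxcr4 lay above the 95th percentile. Of the 16 members counted as higher in HDAC4 3SA, 13 were not counted in LacZ or HDAC4 wt, beside 70.3% of all loci counted in HDAC4 3SA, so this share is near the background. Among the 13 were Ccl2, Ccl3, Ccl4, Ccl6, Ccl7, Cx3cr1, Cxcl1, Cxcl13 and Cxcl16. Cxcl2 (1.28 in HDAC4 wt), Cxcl9 (1.43 in LacZ) and Cxcr3 (1.06 in LacZ) were also there, since those log2 ratios came from values under the minimum. Ccl2, at 0.52, lay just past that limit, and the HDAC4 wt ratios of Cxcl1 (0.48) and Cxcl16 (0.47) lay just under it, so membership near the limit rests on small differences. The difference between vectors could not be tested.

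Cxcl2 had the largest log2 ratio of any member in HDAC4 3SA, 3.18 with 0.1 FPKM added, from a value listed at 0 after saline. The 2 HDAC4 vectors stood in a less uniform order after CFA. The order HDAC4 wt over HDAC4 3SA over LacZ held for 16 of the 41 members after CFA (18.3% of all loci), against 29 after saline, and HDAC4 3SA over HDAC4 wt over LacZ held for 13 (24.0%), against 3 (15.1%).

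**Figure D3:**
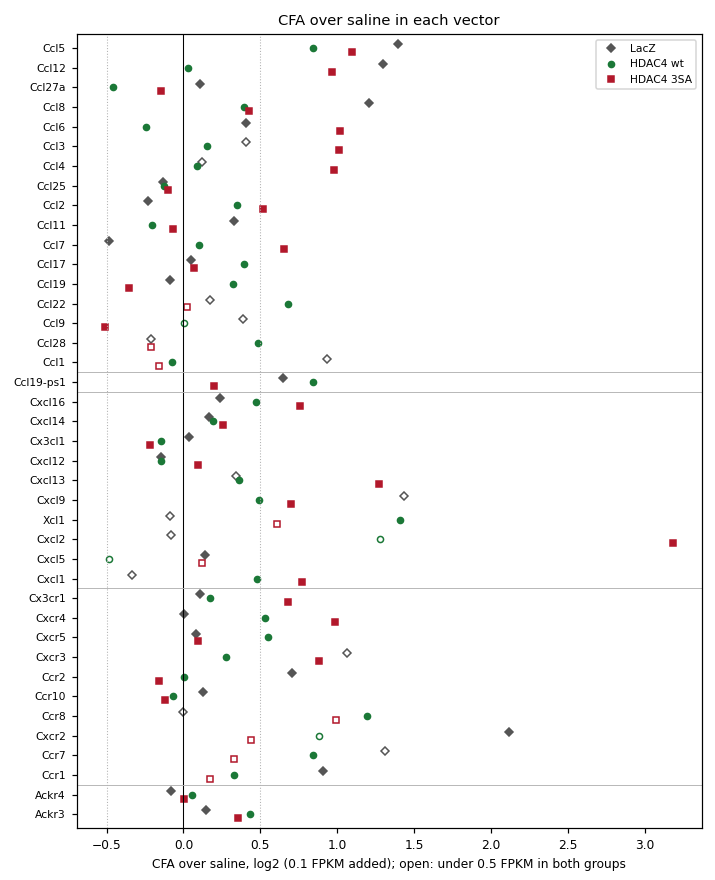
Log2 ratio of CFA to saline level, with 0.1 FPKM added, for 40 members in LacZ (grey diamonds), HDAC4 wt (green circles) and HDAC4 3SA (red squares) mice; open symbols had under 0.5 FPKM in both groups and dotted lines mark 0.5 in either direction. Ccl3, Ccl4, Ccl6 and Cxcl13 have red squares near or over 1 with green circles under 0.5, and Cxcr2 has its rightmost symbol in LacZ.

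Genes that act downstream of chemokine receptors or with them were counted from a list of 44, of which 43 had a locus. The list also holds the CXC ligands Ppbp and Pf4, both counted as higher with either HDAC4 vector after saline. Ppbp was also counted as higher after CFA with LacZ. After saline, 22 of 42 were higher in HDAC4 wt than in LacZ (17.9% of all loci) and 0 lower (14.7%), and 20 of 42 were higher in HDAC4 3SA (15.1%) and 0 lower (13.4%). Was, a Wiskott-Aldrich protein gene, had the largest saline difference but no steady order. Its saline groups were listed at 0 (LacZ), 100.3 (HDAC4 wt) and 19.1 FPKM (HDAC4 3SA). Its CFA groups were listed at 36.97 (LacZ), 36.99 (HDAC4 wt) and 211.3 FPKM (HDAC4 3SA). LacZ and HDAC4 wt were thus close in the CFA groups, and the saline difference of Was is uncertain. Was is nevertheless part of the counts of this list. The next largest saline differences of HDAC4 wt from LacZ were those of Rgs1, Vav1, Rac2 and Dock2. Rgs1, which dampens receptor signalling, was at 0.0992 FPKM in LacZ saline, 2.62 FPKM in HDAC4 wt saline and 2.17 FPKM in HDAC4 3SA saline. Rac2, a GTPase of leukocyte migration, was at 0.861, 5.99 and 4.22 FPKM, Vav1, an exchange factor, at 0.995, 6.84 and 5.13 FPKM, and Dock2, an activator of Rac2, at 0.808, 5.61 and 4.39 FPKM. The widely expressed Cdc42 was at 172.5, 197.6 and 194.6 FPKM, and Gnb1, a G protein subunit, at 180.7, 170.9 and 177.4 FPKM. After CFA, 4 of 39 were higher with LacZ (6.18% of all loci), 0 of 42 with HDAC4 wt (11.9%) and 15 of 42 with HDAC4 3SA (12.9%), while 0, 1 and 0 were lower (5.48%, 8.11% and 6.99%).

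Markers of microglia, monocytes, T and NK cells and B and plasma cells were, like many members, higher with both HDAC4 vectors. The 12 microglial markers matched summed to 190.4 FPKM in LacZ saline and 219.4 FPKM in LacZ CFA, 1074 and 1361 FPKM in HDAC4 wt and 813.8 and 1539 FPKM in HDAC4 3SA, and 11 of 12 were higher in either HDAC4 vector than in LacZ after saline, beside 17.9% (HDAC4 wt) and 15.1% (HDAC4 3SA) of all loci, which is the background of the marker counts that follow. Of the 6 monocyte markers all were higher in both, with sums of 24.9 and 35.5 FPKM, 383.8 and 505.7 FPKM, and 252.2 and 604.6 FPKM. The 14 T and NK cell markers summed to 3.72 and 5.43 FPKM, 22.0 and 33.7 FPKM, and 13.3 and 24.2 FPKM, and all that passed the minimum were higher after saline, 10 of 10 in HDAC4 wt and 9 of 9 in HDAC4 3SA. The 8 B and plasma cell markers, all higher, summed to 1.65 and 3.81 FPKM, 307.2 and 327.4 FPKM, and 197.7 and 266.4 FPKM, and Jchain made up most of the sums of the 4 HDAC4 groups. None of these lists held a gene at 0 in any group. Their part in the chemokine differences was not tested.

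In saline tissue the HDAC4 wt to LacZ ratio of the summed markers was 5.64 for microglia, 15.4 for monocytes, 5.91 for T and NK cells, 186.3 for B and plasma cells and 12.96 for the 14 interferon response genes. Members stood at 3.65 (Cx3cr1), 6.04 (Cxcr4), 6.92 (Cxcl16) and 17.8 to 56.1 (Ccl3, Ccl4, Ccl5 and Ccl8). The last range rests on low LacZ saline values of 0.169 to 0.503 FPKM. Other members had smaller ratios, such as 5.28 for Ccl2, 3.33 for Ccr2, 2.26 for Ccl7, 2.04 for Ccl11, 1.03 for Cxcl12 and 0.909 for Cx3cl1. In the microglial sum C1qa, C1qb and C1qc made up 593.6 of 1074 FPKM in HDAC4 wt saline. Some microglial markers had smaller ratios, 1.25 for P2ry12, 1.44 for Siglech, 2.18 for Tmem119 and 2.69 for Csf1r, so that of Cx3cr1 lay between these and the sum. Interferon response genes summed to 29.3 FPKM in LacZ saline, 44.7 FPKM in LacZ CFA, 379.6 and 558.4 FPKM in HDAC4 wt and 245.6 and 473.9 FPKM in HDAC4 3SA.

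Neutrophil markers and Cxcr2 shared their highest group, LacZ CFA, but not their order elsewhere. The 10 matched markers summed to 14.5 FPKM in LacZ saline and 118.2 FPKM in LacZ CFA, against 44.2 and 31.7 FPKM in HDAC4 wt and 65.4 and 41.5 FPKM in HDAC4 3SA. S100a8 and S100a9 made up most of the sum. With both HDAC4 vectors the sum was lower after CFA than after saline, whereas Cxcr2 was higher. The other lists differed in extent. The 8 endothelial markers summed to between 97.7 and 143.1 FPKM, the 6 leptomeningeal fibroblast markers to between 130.3 and 178.7 FPKM and the 6 astrocyte markers to between 830.6 and 1590 FPKM, with the 4 HDAC4 groups of the astrocyte list at or above 1265 FPKM. Most of that difference lay in Gfap, with 389.4 FPKM in LacZ saline and 807.5 FPKM in HDAC4 wt saline. Aqp4 and Aldh1l1 were also higher in HDAC4 wt, at 129.2 and 196.0 FPKM and at 24.2 and 34.2 FPKM, while Gja1, S100b and Slc1a3 were lower. The 6 dendritic cell names gave 5 genes that summed to between 8.72 and 33.3 FPKM, the 6 perivascular macrophage markers to between 5.77 and 34.5 FPKM, and the 4 venous adhesion genes, with Sele at 0 in LacZ saline, to between 10.7 and 36.3 FPKM. Single genes carried much of the latter ranges: after saline, Ms4a7 was at 0.515 FPKM in LacZ and 19.4 FPKM in HDAC4 wt, Itgax at 0.323 and 15.8 FPKM, and Icam1 at 1.24 and 12.4 FPKM.

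The tissue label was set beside 6 neuronal markers, 9 dorsal horn markers and 4 of 6 listed lumbar Hox genes, none of which was at 0 in a group. The other Hox genes of the list, Hoxc10 and Hoxd10, could not be matched. Neuronal markers summed to 2204 and 2134 FPKM in LacZ, 1556 and 1456 FPKM in HDAC4 wt and 1726 and 1468 FPKM in HDAC4 3SA. Snap25 made up much of this, with 1227 FPKM in LacZ saline and 794.8 FPKM in HDAC4 wt saline. In the same groups Tubb3, Stmn2, Eno2 and Rbfox3 were lower and Syt1 higher in HDAC4 wt, and 2 of the 6 were counted as lower (14.7% of all loci). Dorsal horn markers summed to between 291.4 and 437.2 FPKM and the Hox genes to between 14.9 and 19.1 FPKM. Hoxd9 made up most of the Hox sum, with 14.7 of 18.4 FPKM in LacZ saline, so the lumbar level rests on little. Hdac4 itself was at 7.41 and 7.72 FPKM in LacZ, 10.1 and 10.8 FPKM in HDAC4 wt and 8.86 and 8.81 FPKM in HDAC4 3SA. Of 34579 loci, 386 lay at unlike places in the tables and were left out between vectors.

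**Figure D4:**
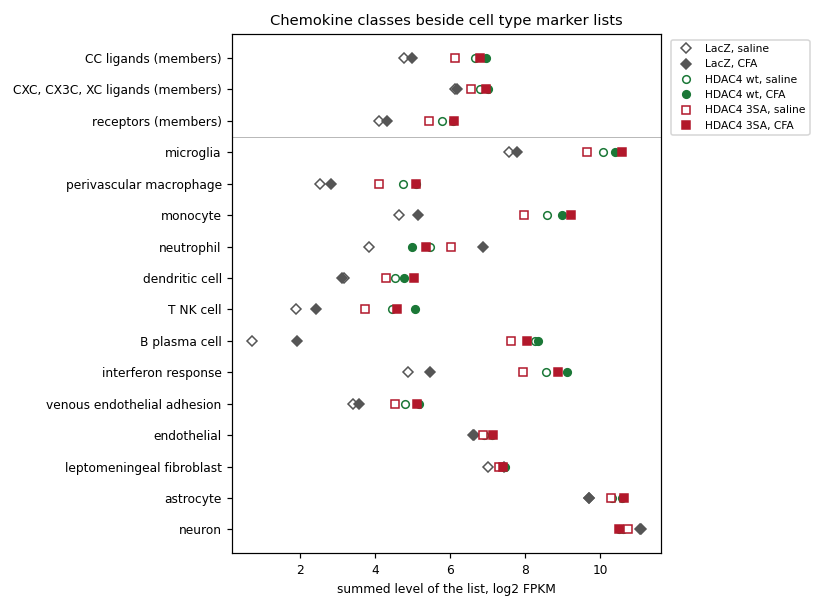
Summed level, in log2 FPKM, of 3 classes of members (top) and 13 marker lists, in LacZ (grey diamonds), HDAC4 wt (green circles) and HDAC4 3SA (red squares) mice; open symbols are saline and filled symbols CFA groups, 1 pooled value each. The LacZ groups lie left of the HDAC4 groups for chemokine classes, microglia, monocytes, T and NK cells, B and plasma cells and interferon response genes, and right of them for neurons, while LacZ CFA is the rightmost symbol for neutrophils.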

How the data were processed

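Dorsal spinal cord RNA of 18 mice in 6 groups of 3 was sequenced as strand-specific, poly-A selected libraries. Per the labels and methods, the authors mapped reads with TopHat and Bowtie to GRCm38 (mm10) and used Cufflinks and Cuffdiff with 1 run per vector. The deposited FPKM values are the authors' group values, normalized within a run, 1 for saline and 1 for CFA. The tables also hold the authors' fold changes, test statistics, p-values, q-values and significance calls, which were not used. The low FPKM values share no common step, so no reads could be recovered, and the tables do not give the depth of each library; the methods state only a minimum for all.

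Values were read with Python 3.11.15, pandas 2.3.3 and numpy 2.4.6. For a name with more than 1 locus (4 names) the locus with the highest mean over the 6 groups was taken. Log2 ratios had 0.1 FPKM added; loci under 0.5 FPKM in both groups were left out and a ratio beyond 0.5 was counted. The same was computed for all loci (background), and for loci in bands of mean level (0.5 to 2, 2 to 10, and from 10 FPKM). The counting was also tested on simulated data.

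Named genes were all members of at least 0.5 FPKM. The 6 values were given for most of those beyond a log2 ratio of 0.5 in a table, at or over 5 FPKM or among the 3 most extreme ratios of a vector. Some of these, such as Ackr4, Ccl9, Ccl27a, Ccr7, Ccr8, Cxcl1 and Cxcr5, were given by single values or a range, and Ccl19-ps1 without its level. Members, marker lists and the receptor signalling list were chosen with earlier results of these data known. The tests per mouse foreseen where the tables held such values were not run, since they hold group values. Cysteine motifs of ligand proteins were not analysed here. Alternatives were another constant or none, another minimum or none, a log2 limit of 1, centring on loci of at least 5 FPKM, and summing loci of a name. Values of 1 member are not reported here, although it is part of the counts, medians and class sums.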

Additional observations from a re-analysis of the deposited data

How the results depend on the processing

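None of the counts and medians recomputed reversed its direction. No paired analysis was possible because each group has 1 pooled value, which also left no replicate to leave out. With 1 FPKM added, members higher after CFA were 3 in LacZ (2.55% of all loci) and 3 in HDAC4 wt (5.64%), and 0 were lower in HDAC4 3SA (2.87%). The median log2 ratio was then 0.19 in HDAC4 wt and 0.34 in HDAC4 3SA. For saline levels with 1 FPKM added, the median was 0.59 for HDAC4 wt and 0.48 for HDAC4 3SA against LacZ. In HDAC4 3SA, 0 members were then lower than in LacZ (6.38% of all loci) and 6 were lower than in HDAC4 wt (3.86%). With a minimum of 1 FPKM, 2 members were higher after CFA in LacZ (4.63% of all loci) and 0 were lower in HDAC4 3SA (5.25%). In saline HDAC4 3SA, 0 were then lower than in LacZ (10.8%, median of members 1.30) and 6 were lower than in HDAC4 wt (6.5%). With no minimum, 11 were higher and 1 lower after CFA in LacZ (7.97% and 7.37% of all loci above 0), 1 was lower in HDAC4 wt (9.86%) and the HDAC4 3SA median was 0.35. At a log2 limit of 1, members higher after CFA were 4 of 27 with LacZ (1.82% of all loci) and 2 of 37 with HDAC4 wt (3.4%). With HDAC4 3SA they were 5 of 32 (4.8%), with 0 lower (2.18%). With no constant, or with the loci of a name summed, 1 was lower after CFA in LacZ, and the share of all loci was not computed for these settings. A larger constant or minimum takes weight from low values by construction. The other 63 values stayed within 1.5 times the count or 0.1 of the median, centring included. Most members lie under 10 FPKM, and the tables give neither the depth of each library nor the spread between mice.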
